A study of Homo sapiens with 6 samples.

Results

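The 10 genes described here are the signal-transducing SMADs SMAD1, SMAD2, SMAD3 and SMAD4, the inhibitory SMADs SMAD6 and SMAD7, and 4 other inhibitors of the TGF-β pathway, SKIL, TGIF1, SMURF2 and PMEPA1. They were chosen by name from 41497 named entries, each name had 1 entry, and all 10 were among the 14860 entries tested. Transcripts were sequenced in HK-2, a wild-type-labelled human kidney line immortalised from proximal tubule epithelium, to measure its response to the profibrotic cytokine TGF-β1. There were 3 control libraries from untreated cells and 3 libraries from cells exposed to TGF-β1 for 24 hours. The labels describe maintenance in DMEM-F12 medium with fetal bovine serum, while the methods of the study describe TGF-β treatment in serum-free medium. Those methods give a TGF-β dose for treatment experiments in general but do not tie it to the sequenced cells, and they do not state the serum condition of the control cells.

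TGF-β binds receptors that phosphorylate SMAD2 and SMAD3, while bone morphogenetic proteins (BMPs) act mainly through SMAD1, SMAD5 and SMAD9. The phosphorylated SMADs join SMAD4 and enter the nucleus to regulate transcription. The pathway also induces its own inhibitors, which act on the receptors, on the SMADs or on the transcription complexes, and it is known in renal tubular cells for driving fibrosis.

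Signal-transducing SMADs recognise the short DNA element CAGAC, the palindrome GTCTAGAC and GC-rich elements such as GGCGCC. RefSeq promoter windows on GRCh38.p14, which run from 250 bases before to 50 bases after an annotated transcript start, were searched for these letters on both strands. The 10 genes had 30 windows, and some windows of a gene overlapped. GTCTAGAC was in 1 of the 30 windows, that of SMAD6, and in 0.202% of the 35116 windows and 0.256% of the 27305 genes of the whole table. CAGAC was in 16 of the 30 windows and 7 of the 10 genes, against 45.3% of all windows and 49.99% of all genes. The 7 genes include SMAD1 and TGIF1, which did not pass the test described below, and TGIF1 held it in 5 windows. GGCGCC was in 8 of the 30 windows and 6 of the 10 genes, against 19.2% of all windows and 22.01% of all genes. These 6 genes were SKIL, PMEPA1, SMAD3, SMAD1, SMAD2 and SMAD4, and the last 3 did not pass the test. The 10 genes have more windows per gene than the whole table, which raises the share of genes with a match. A match describes these letters only and was not tested as a binding site. The stretches below are shown because they hold the palindrome or CAGAC in the genes whose transcripts changed, and the choice of stretches is no evidence that the motifs go with the change. They read 5′ to 3′ on the strand of the gene, and the capitals mark the motif, which in SKIL is on the opposite strand and reads GTCTG.
SMAD6, chr15:66702176-66702235, plus strand: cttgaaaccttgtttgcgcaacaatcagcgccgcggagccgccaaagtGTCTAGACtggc
SMAD7, chr18:48951061-48951120, minus strand: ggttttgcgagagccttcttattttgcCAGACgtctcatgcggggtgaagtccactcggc
SKIL, chr3:170357581-170357640, plus strand: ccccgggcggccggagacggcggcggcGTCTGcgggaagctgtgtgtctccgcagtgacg
SMURF2, chr17:64662291-64662320, minus strand: tcccgggtccctCAGACaagagggcgggtg
PMEPA1, chr20:57710660-57710719, minus strand: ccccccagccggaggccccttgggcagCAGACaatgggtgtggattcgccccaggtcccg
SMAD3, chr15:67065596-67065625, plus strand: ttgcatgaaacaCAGACtgggagcgggcgg

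Total counts per library ranged between 21.9 and 26.9 M, where M stands for megacounts, and 20911 to 22049 genes had a count. TGFBI and CCN2, established TGF-β targets, rose by 2.33 and 1.56 on the log2 scale. Of 11 proximal tubule markers, LRP2 and SLC22A6 had no count in any library, and HNF4A, SLC22A8, ANPEP and SLC34A1 were each at or below a mean of 0.201 CPM (counts scaled to a common library size). GGT1 was at 75.6 CPM in control and fell to 50.5 CPM, while CUBN and AQP1 had counts in every library and rose from means of 0.485 and 0.396 to 0.861 and 1.72 CPM. Of 5 epithelial markers, KRT8 and KRT18 were at means of 488 and 202 CPM in control and rose, KRT19 and EPCAM were at 136 and 16.4 CPM and fell, and CDH1 was near 0 at 0.0846 CPM. Nothing in the labels says that replicates were separate cultures, so p-values measure the spread between these libraries, which may be technical. In bulk RNA, a change in the share of cells that express a gene and a change in RNA per cell cannot be told apart.

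After TGF-β1, transcripts of 5 of the 6 inhibitors rose, those of SMAD3 fell, and SMAD1, SMAD2, SMAD4 and TGIF1 did not pass the test. The largest rise was that of PMEPA1 at 6.05-fold, followed by SMAD7 at 3.12-fold, SKIL at 2.11-fold, SMURF2 at 1.37-fold and SMAD6 at 1.31-fold. Thus 5 of 10 genes were called higher, beside 22.2% of all entries tested, and 1 of 10 was called lower, beside 22.1%. Groups did not overlap for 6 genes that were higher in all TGF-β1 libraries, beside 27.9% of all entries, and for 1 that was lower, beside 27.7%. The median log2 fold change was 0.26 for the 10 genes, 0.77 for the 6 inhibitors, 0.01 for the 4 signal-transducing SMADs and 0.01 for all entries. Calls were made with the edgeR quasi-likelihood test at a Benjamini-Hochberg adjusted p under 0.05 over all entries tested.

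**Figure D1:**
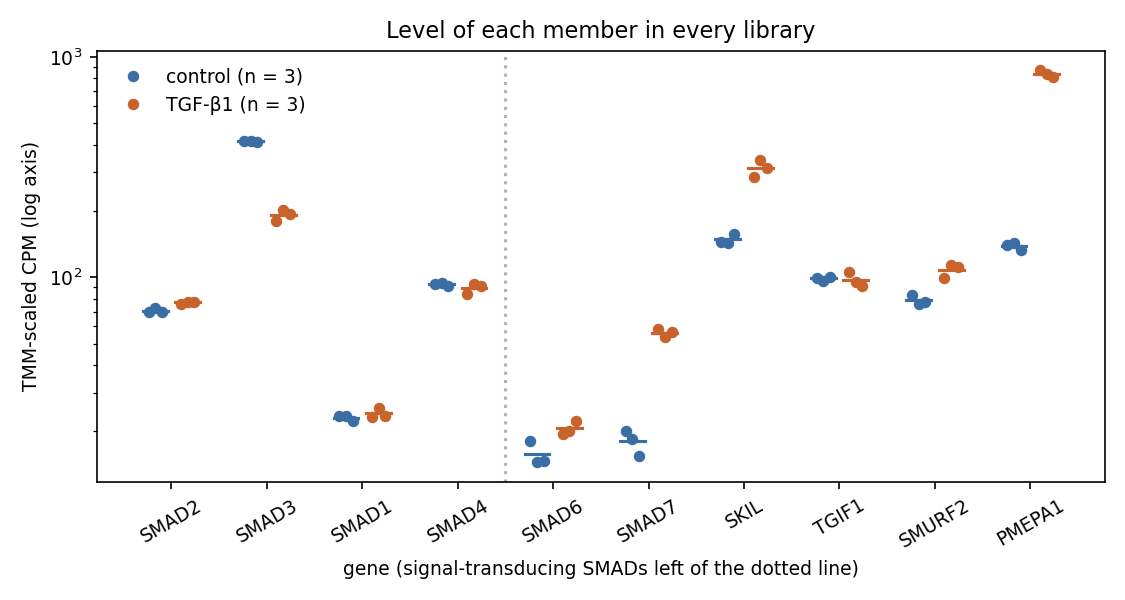
Level of each gene in the 6 libraries, in CPM scaled by TMM on a log axis. Points are libraries, short lines are group means (n = 3), and the dotted line separates the signal-transducing SMADs from the inhibitors. The TGF-β1 points of PMEPA1, between 809.5 and 871 CPM, lie above its control points, and those of SMAD3 lie below its control points.

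SMAD2 and SMAD3 are the SMADs phosphorylated by the TGF-β receptor, and of the pair only SMAD3 passed the test. SMAD3 (gene-SMAD3, chr15:67065602-67195195) was at 414, 416 and 414 CPM in control and at 179.9, 202 and 194 CPM after TGF-β1. The control values lay within a narrow band, and every TGF-β1 library was below it. The log2 fold change was -1.11 ± 0.06 (SE), with a 95% interval of -1.23 to -0.98 and an edgeR adjusted p of 7.0e-08. SMAD2 (gene-SMAD2, chr18:47808957-47931188) was at 69.7, 72.9 and 69.5 CPM in control and at 75.9, 77.4 and 77.5 CPM after TGF-β1. The groups did not overlap, but the log2 fold change of 0.12 ± 0.05 did not pass the test (edgeR adjusted p = 0.080, 95% interval 0.0071 to 0.24). The interval is not adjusted for the number of genes tested.

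The ratio of SMAD3 to SMAD2 in TPM, a level scaled for gene length and library size, was 34.3, 32.9 and 34.3 in control libraries and 13.7, 15.1 and 14.5 in treated ones. The ratio was thus lower in each treated library, with a log2 difference of -1.23, and an exact two-sided permutation test over libraries gave p = 0.1, the smallest that 3 against 3 allows. A ratio within a library does not depend on scaling between libraries, but its size depends on the gene lengths used for TPM. The length of SMAD2 in the files was 42081 bases, of which 1 exon block made up 32994. With other lengths the control ratio lay between 11.9 and 40.04, so the excess of SMAD3 over SMAD2 is uncertain in size, while the log2 difference between groups does not depend on length.

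SMAD1, a SMAD of the BMP branch, and SMAD4, the partner shared by both branches, did not pass the test. SMAD1 (gene-SMAD1, chr4:145481306-145559176) was at 23.5, 23.5 and 22.3 CPM in control and at 23.3, 25.6 and 23.6 CPM after TGF-β1. The groups overlapped, and the log2 fold change was 0.06 ± 0.07 with a 95% interval of -0.081 to 0.21 (edgeR adjusted p = 0.461). SMAD4 (gene-SMAD4, chr18:51030213-51085042) was at 93.0, 94.5 and 91.4 CPM in control and at 84.1, 93.6 and 91.8 CPM after TGF-β1. TGF-β1 replicate 1 was the lowest library and the other treated libraries lay within the control range, with a log2 fold change of -0.05 ± 0.06 and a 95% interval of -0.18 to 0.076 (edgeR adjusted p = 0.510). With libraries scaled by total counts only, which moved the median of all entries to -0.10, SMAD4 was called lower at -0.16 (edgeR adjusted p = 0.0372) and the value of SMAD1 was -0.04.

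SMAD7, which blocks SMAD phosphorylation at the TGF-β receptor and brings ubiquitin ligases to it, had the larger rise of the 2 inhibitory SMADs. SMAD7 (gene-SMAD7, chr18:48919853-48950965) was at 20.1, 18.4 and 15.5 CPM in control and at 58.1, 53.9 and 56.3 CPM after TGF-β1. The lowest treated library was well above the highest control library. The log2 fold change was 1.64 ± 0.09 with a 95% interval of 1.45 to 1.84 (edgeR adjusted p = 1.0e-07). SMAD6, which preferentially inhibits BMP signalling, lies on the same chromosome arm as SMAD3, 283 kb away. SMAD6 (gene-SMAD6, chr15:66702110-66782849) was at 18.1, 14.5 and 14.6 CPM in control and at 19.5, 20.1 and 22.2 CPM after TGF-β1. Control replicate 1 came near the treated libraries but did not reach them, and the log2 fold change was 0.39 ± 0.10 with a 95% interval of 0.17 to 0.60 (edgeR adjusted p = 0.00754). None of the 4 entries listed between SMAD6 and SMAD3 had enough counts to be tested.

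The ratios of SMAD7 to SMAD3 and of SMAD6 to SMAD1 were higher in each treated library than in any control library. SMAD7 to SMAD3 in TPM was 0.0955, 0.0872 and 0.0739 in control libraries and 0.637, 0.525 and 0.572 in treated ones, a 6.77-fold higher ratio (log2 difference 2.76). SMAD6 to SMAD1, a pair of the BMP branch, was 0.384, 0.308 and 0.327 in control libraries. In treated libraries it was 0.417, 0.393 and 0.470, a 1.26-fold higher ratio (log2 difference 0.33). Groups did not overlap for either ratio, and the exact two-sided permutation p was 0.1 for each, the smallest possible. With single libraries left out, the same test gave p of 0.1 to 0.2 for SMAD6 to SMAD1. SMAD5, another SMAD of the BMP branch, was above SMAD1, with control means of 54.6 and 17.5 TPM. SMAD6 relative to SMAD5 overlapped between groups. Control replicate 1 had 6.72 TPM of SMAD6 and 52.9 of SMAD5. TGF-β1 replicate 2 had 7.16 and 59.3 TPM, a lower ratio. That ratio was not tested. Of the summed TPM of all 8 SMAD genes, SMAD3 made up 57.9% to 58.6% in control libraries and 32.8% to 33.9% in TGF-β1 libraries. SMAD6 and SMAD7 together made up 6.05% to 7.62% in control and 20.6% to 24.1% in treated libraries. The sum itself was 321 to 328 TPM in control libraries and 221 to 257 TPM in treated ones. TPM was not scaled by TMM, so the sums depend on the scaling between libraries. Shares and sums also depend on the gene lengths used. With the median length of complete GENCODE transcripts, the control value of SMAD3 was 902 in place of 189. Such values were not rescaled to the sum of a library, so they compare only with values of genes treated likewise.

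**Figure D2:**
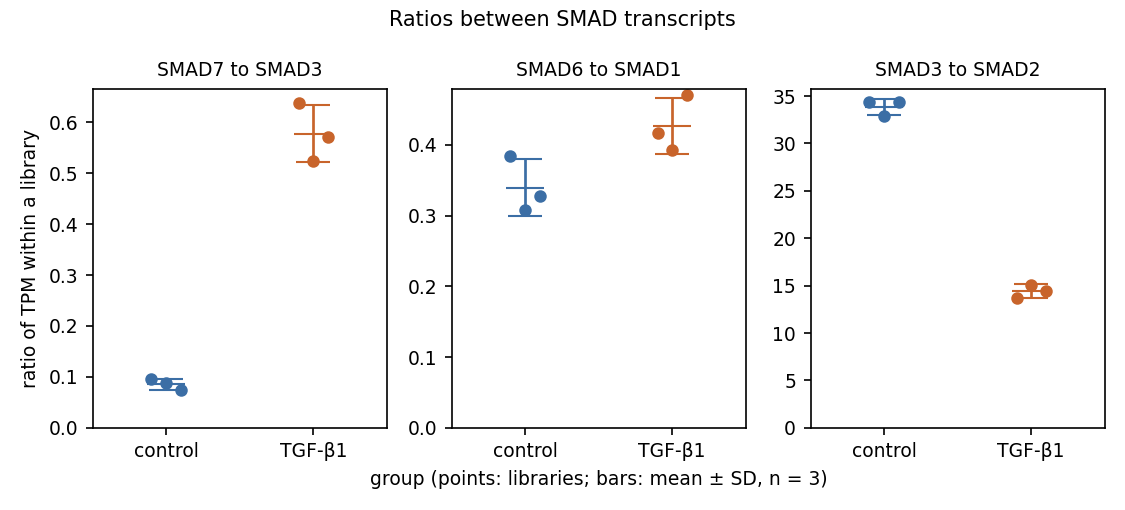
Ratio of TPM values within each library for SMAD7 to SMAD3, SMAD6 to SMAD1 and SMAD3 to SMAD2. Points are libraries and bars are means ± SD (n = 3 per group). The first ratio went from a mean of 0.0855 to 0.578 and the last from 33.9 to 14.4.

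Of the co-repressors, SKIL rose and TGIF1 did not pass the test. SKIL encodes SnoN, which binds SMAD complexes and recruits co-repressors. SKIL (gene-SKIL, chr3:170357678-170396849) was at 145, 143 and 158 CPM in control and at 287, 339 and 314 CPM after TGF-β1. All treated libraries were above all control libraries, with a log2 fold change of 1.08 ± 0.07 and a 95% interval of 0.92 to 1.23 (edgeR adjusted p = 4.8e-07). TGIF1, a homeodomain co-repressor that binds SMAD2 and SMAD3, is encoded on chromosome 18 (gene-TGIF1, chr18:3412009-3459978). It was at 99.9, 96.3 and 101 CPM in control and at 106, 94.8 and 91.1 CPM after TGF-β1. The treated libraries lay on both sides of the control range, and the log2 fold change was -0.03 ± 0.06 with a 95% interval of -0.17 to 0.12 (edgeR adjusted p = 0.778).

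The remaining inhibitors, SMURF2 and PMEPA1, both rose. SMURF2 is a ubiquitin ligase that SMAD7 brings to the TGF-β receptor. SMURF2 (gene-SMURF2, chr17:64542282-64662307) was at 83.4, 76.0 and 77.3 CPM in control and at 99.4, 113 and 111 CPM after TGF-β1. The groups did not overlap, and the log2 fold change was 0.45 ± 0.07 with a 95% interval of 0.31 to 0.60 (edgeR adjusted p = 2.4e-04). PMEPA1, a membrane protein that sequesters SMAD2 and SMAD3 from the receptor, had the largest change of the 10 genes. PMEPA1 (gene-PMEPA1, chr20:57648396-57711472) was at 140.3, 143 and 134 CPM in control and at 871, 840.2 and 809.5 CPM after TGF-β1. Every treated library was far above every control library, with a log2 fold change of 2.60 ± 0.06 and a 95% interval of 2.47 to 2.72 (edgeR adjusted p = 2.4e-10), which ranked 115 from the highest of 14860 entries. PMEPA1 shares 267 exon bases, 4.84% of its exons, with the antisense gene NKILA, which had 295 counts in control and 1844 after TGF-β1. NKILA was named after its values were seen. Whether counting used strand is not stated, so reads in the shared bases cannot be assigned to either gene.

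**Figure D3:**
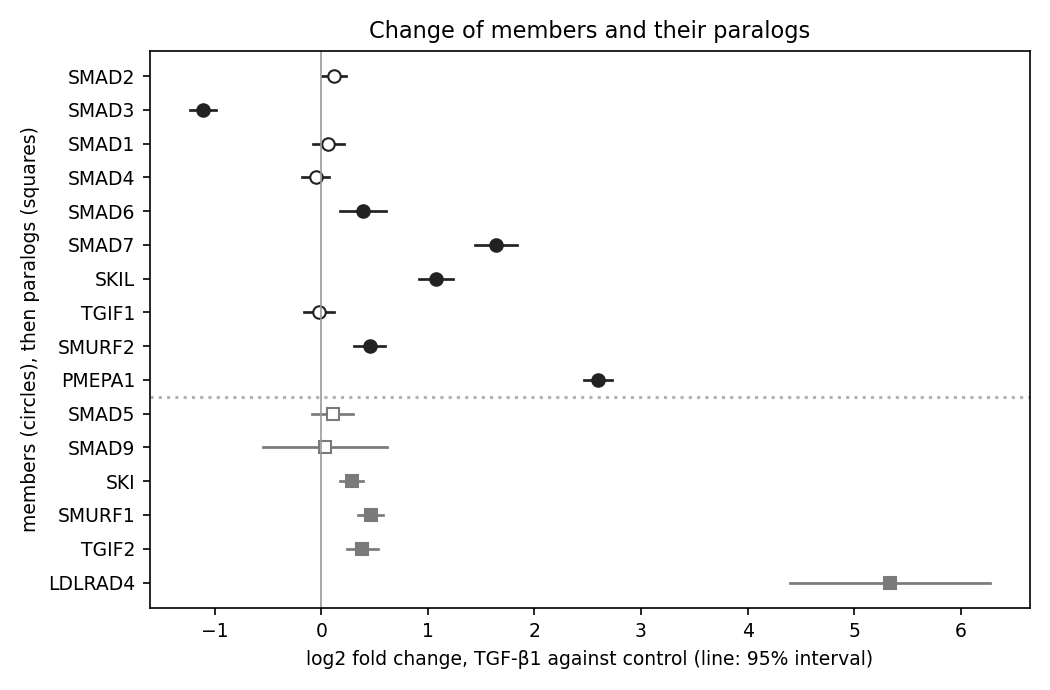
Log2 fold change of TGF-β1 against control for the 10 genes (circles) and their paralogs (squares), with 95% intervals as lines. Filled symbols passed the test. The value of LDLRAD4, with 3 counts in all control libraries, depends on the prior count of the fit and is no bound. PMEPA1 stood at 2.60 and SMAD3 at -1.11.

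Levels of different genes can be compared per length, in TPM. In control the order was SMAD3 at 189 ± 3.32 TPM (SD, n = 3), PMEPA1 at 83.8 ± 1.95, SKIL at 66.1 ± 4.72, TGIF1 at 61.2 ± 2.07, SMURF2 at 42.1 ± 1.65, SMAD4 at 35.3 ± 0.571, SMAD1 at 17.5 ± 0.281, SMAD7 at 16.2 ± 1.79, SMAD6 at 5.94 ± 0.685 and SMAD2 at 5.59 ± 0.171. The ranges of SKIL and TGIF1, of SMAD1 and SMAD7, and of SMAD6 and SMAD2 overlapped. After TGF-β1 the order was PMEPA1 at 467 ± 11.5 TPM, SKIL at 129 ± 14.2, SMAD3 at 80.9 ± 7.01, TGIF1 at 55.3 ± 2.96, SMURF2 at 53.2 ± 5.16, SMAD7 at 46.5 ± 0.776, SMAD4 at 31.4 ± 2.63, SMAD1 at 16.9 ± 1.25, SMAD6 at 7.18 ± 0.623 and SMAD2 at 5.61 ± 0.220. Only TGIF1 and SMURF2 overlapped among neighbours in that order. With the lengths in the files, SMAD3 thus moved from the highest to the third place and SMAD7 passed SMAD4. The order depends on the gene lengths used: with median lengths of complete GENCODE transcripts, SMAD7 was above SMAD4 already in control (46.8 against 36.4) and SMAD3 was second after TGF-β1 (386 against 331 for SKIL). The place of SMAD2 rests on its long annotated length.

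Close relatives of these genes were listed as paralogs, and 4 of 6 rose, 0 fell and 2 did not pass the test, beside 22.2% higher and 22.1% lower of all entries, with a median log2 fold change of 0.34. LDLRAD4, a paralog of PMEPA1 that also inhibits TGF-β signalling, had 0, 2 and 1 counts in control and 52, 45 and 40 counts after TGF-β1. All treated libraries were above all control libraries, and the ratio of pooled counts over pooled library sizes was 45.2 with a 95% exact binomial interval of 15.2 to 222 that covers counting error only (edgeR adjusted p = 2.4e-06). SMURF1, a ubiquitin ligase like SMURF2, rose from 72.4 ± 1.5 to 99.97 ± 3.14 CPM (SD, n = 3), and its log2 fold change of 0.47 ± 0.05 was close to that of SMURF2. Its name had 2 entries, so its level is uncertain. TGIF2 rose by 0.39 ± 0.07 and SKI, the relative of SKIL, by 0.28 ± 0.05, whereas TGIF1 was at -0.03 and SKIL at 1.08. SMAD5 was at 131, 130.3 and 137 CPM in control and at 121, 153 and 155 CPM after TGF-β1, with overlapping groups and an edgeR adjusted p of 0.357. SMAD9 was below 1 CPM in every library (edgeR adjusted p = 0.928).

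Among 19 other negative regulators of the pathway, 8 rose, 2 fell and 9 did not pass the test, beside 22.2% higher and 22.1% lower of all entries, with a median log2 fold change of 0.08. NCOR1, a nuclear receptor co-repressor, fell by 0.30. The histone deacetylases HDAC1 and HDAC2 rose by 0.49 and 0.24, LEMD3, a SMAD-binding protein of the inner nuclear membrane, by 0.41, and STRAP, a SMAD7-binding protein, by 0.37. BAMBI, a decoy receptor, rose by 0.64 from a low level of 1.45 ± 0.303 CPM. WWP1, a ubiquitin ligase, rose by 0.21 and CTBP2, a co-repressor, by 0.18. NEDD4L, a ubiquitin ligase for SMAD2 and SMAD3, fell from 126 ± 2.75 to 65.2 ± 4.84 CPM (log2 fold change -0.95 ± 0.06), the opposite direction to SMURF2. The count that rose was 5 without TGF-β1 replicate 2, and the count that fell was 5 with total counts only.

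Of 14 positive regulators, 13 were tested, and 1 rose, 4 fell and 8 did not pass the test, beside the same shares of all entries, with a median log2 fold change of -0.01. DAB2, an adaptor that links receptors to SMADs, fell from 57.4 ± 3.34 to 31.5 ± 0.974 CPM (-0.86 ± 0.06). TGFBRAP1, a receptor-associated protein, fell by 0.57, ZFYVE9, which encodes the SMAD anchor SARA, by 0.37, and the co-activator CREBBP by 0.21. USP15, a deubiquitinase of the receptor, rose by 0.29. FOXH1, a SMAD partner in embryonic cells, was below the count filter. When control replicate 3 was left out 2 rose, and when TGF-β1 replicate 1 was left out 3 rose.

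**Figure D4:**
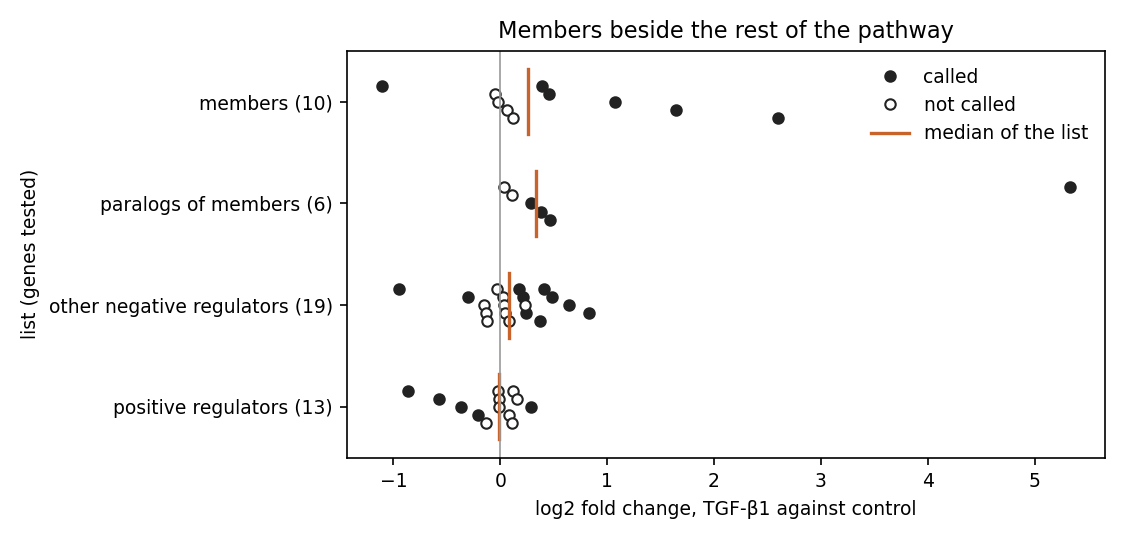
Log2 fold changes of the 10 genes, their paralogs, 19 other negative regulators and 13 tested positive regulators. Each point is a gene, filled where it passed the test, and vertical lines are list medians (0.26, 0.34, 0.08 and -0.01). The far right point is LDLRAD4, whose fitted value is no bound.

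Profiles were compared over the 6 libraries by the root mean square (RMS) difference of centred log2 CPM. Because these libraries span both groups, the choice itself favours log2 fold changes close to that of the gene compared. Candidates were 10432 entries with 1 entry per name and a mean of at least 5 CPM. Those nearest to PMEPA1 were TAGLN, an actin-binding protein (RMS 0.0645), LPAR5, a lysophosphatidic acid receptor (0.0655), and IL11, a cytokine (0.0749). Their log2 fold changes were 2.66, 2.62 and 2.65. Those nearest to SMAD3 were ABCC4, an efflux transporter (0.0138), LOC107984316 (0.0221) and PARP4 (0.0274), with log2 fold changes of -1.11, -1.12 and -1.14.

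Markers of other cell types also differed between groups. The summed TPM of fibroblast and pericyte markers went from 0.238 to 0.373 in control to 2.35 to 2.79 after TGF-β1, through PDGFRB, while PDGFRA and DCN stayed at or below a mean of 0.168 CPM. Endothelial markers summed to 0.617 to 1.15 TPM in control and 0 after TGF-β1, and distal tubule markers to 0.186 to 0.423 and 0.0762 to 0.102. Podocyte markers summed to 0.183 to 0.235 TPM in control and 0 to 0.0534 in treated libraries. Leukocyte markers summed to 183 to 199 and 111 to 147 TPM, nearly all CD68, with PTPRC near 0 and CD3E at 0. Proximal tubule markers summed to 80.2 to 96.4 and 52.1 to 60.9 TPM. Nearly all of that sum was GGT1, at means of 85.9 and 52.8 TPM, while CUBN and AQP1 rose from low levels. Epithelial markers summed to 1495 to 1561 and 1703 to 1867 TPM. The epithelial sum combines KRT8 and KRT18, which rose, with KRT19 and EPCAM, which fell by 1.34 and 1.25 on the log2 scale. Their part in the changes of the SMADs and inhibitors was not tested.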

How the data were processed

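Total RNA of HK-2 cells was extracted with Trizol, and mRNA captured with oligo(dT) was reverse transcribed with random hexamers and sequenced in 3 control and 3 TGF-β1 libraries. The deposited tables give raw counts per gene and TPM computed by the authors from the counts and gene lengths, and recomputed TPM differed by at most 3.57e-06. An FPKM column was not used. The submitters' processing notes name CASAVA, featureCounts 2.0.1, DESeq2 1.16.1 and hg38. The aligner and annotation release are not given in the sources used here.

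Each table had 42095 entries. Loci without a name, 598 with 0.396% to 0.464% of counts, were left out, and 7 records broken over lines were rejoined. Counts were filtered with filterByExpr (minimum count 10), scaled by TMM and tested with the two-sided quasi-likelihood F test of edgeR 4.0.16 in R 4.3.3, with Benjamini-Hochberg adjustment over 14860 entries. The SE was the log2 fold change divided by the square root of F. CPM used TMM-scaled library sizes. DESeq2 1.42.0, limma 3.58.1 (voom), other scalings and filters, a block for the replicate number and the omission of single libraries were alternatives. The test was checked on simulated data with few changed genes, as many up as down, and the same spread set for all genes. That check does not cover data with as large a share of genes called as here. Promoters were from RefSeq tables. Besides all 10 genes and the listed pathway genes, the 3 profiles nearest to the largest rise and fall were named. Some genes of the lists are counted but not reported here by name. The genes and lists were chosen with earlier results of these data known. Python 3.11.15, pandas 2.3.3 and scipy 1.17.1 were used.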

Additional observations from a re-analysis of the deposited data

How the results depend on the processing

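Under 15 alternatives, 9 of the 10 genes kept their call. SMAD4 did so in 14, being called lower at -0.16 with total counts only. The alternatives include a prior count of 2, which leaves each adjusted p as it was and so could not change a call. SMAD6, the rise nearest the threshold, ranged from 0.28 to 0.50 (adjusted p 2.2e-04 to 0.0404 by edgeR, DESeq2 or limma). Total counts only gave 2134 genes called higher, with 31.7% of calls higher in place of 50.05%, and gave 2 of the 10 genes and 5 other negative regulators called lower. Leaving out each library gave 1 to 3 positive regulators and 5 to 10 other negative regulators called higher. The cause was not tested. With a replicate block 5 of the 10 genes were called higher, 1 lower, and 3396 and 3394 of all entries higher and lower. The labels give same-numbered libraries only a shared number and do not say whether they were paired. Correlations of deviations were 0.111, -0.012 and 0.0762 for same-numbered libraries and -0.149 to 0.0883 for the others. Gene lengths were varied after the data were seen. The control ratio of SMAD3 to SMAD2 was 23.4 with GENCODE v29 exon unions and 11.9 with the median of all coding transcripts. That median includes incomplete transcripts, so the median of complete transcripts was tried next, once 11.9 was known, and gave 40.04. The control value of SMAD2 was 6.47, 171 and 22.5 under these lengths, without rescaling to the sum of a library.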
